A study of Mus musculus with 18 samples.

Results

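The levels of 40 innate defence and acute phase genes were followed across 3 sorted epithelial populations of the mouse mammary gland. They were chosen by gene symbol from the 52636 gene identifiers that each library lists. They cover 11 pattern receptors and adaptors, 11 antimicrobial proteins, 5 acute phase proteins, 4 complement components, 2 mucosal proteins, 4 chemokines and 3 genes of the interleukin 1 system. These genes, and the gene lists used below, were chosen with earlier results of these data known. Shares of all genes stand beside their counts as description only. The 6 mice were nulliparous, 12 weeks old and untreated, and their genotype label is MMTV-Cre, a transgene in which a mammary tumour virus promoter drives the Cre recombinase, chiefly in secretory epithelium. The label names no other allele, and every population came from animals with the transgene. Hormone-sensing luminal cells (HSL) were sorted as CD49f-lo/CD61-, alveolar progenitors (AP) as CD49f-lo/CD61+ and basal cells as CD49f-hi/CD61+; the stain also held EpCAM and the lineage antibodies CD31, CD45 and Ter119 against endothelial, leukocyte and red cells. There were 6 libraries of each population, numbered as samples 1 to 6, and 18 in all. Each library is bulk RNA of a sorted population, so fewer cells of a type and less RNA per cell cannot be told apart.

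Innate defence of an epithelium works in layers. Receptors on the surface and inside the cell bind conserved microbial molecules and signal through adaptors such as MyD88 to NF-kB. Secreted proteins then withhold iron, damage or coat microbes, inhibit proteases and draw in neutrophils. Acute phase proteins are best known from the liver, where interleukin 6 acts through STAT3 and C/EBP factors. In the mammary gland many of these proteins, lactoferrin and lipocalin 2 among them, are secreted into milk or rise in mastitis.

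Libraries held 26516293 to 52404937 gene counts in HSL, 37391691 to 62505465 in AP and 29899462 to 91095830 in basal cells. Levels are given as CPM, the usual counts per fixed library total, here scaled with TMM factors, as lowest to highest of 6 libraries or as mean ± SD (n = 6). A CPM value is not divided by gene length, so each gene is compared only with itself across populations. Markers followed the sort: 7 hormone-sensing markers summed to 3930 to 7280 CPM in HSL, 455 to 2240 in AP and 157 to 420 in basal libraries. The 6 alveolar progenitor markers summed to 130 to 501, 2040 to 4330 and 51.8 to 153 CPM in the same order, and 7 basal markers to 35.9 to 182, 106 to 310 and 27100 to 47600 CPM. The 3 libraries of sample 1 stood apart from the rest on the third principal component (7.82% of the variance), with scores of 76.05 to 90.87 against -54.77 to 19.47 for the other 15. Sample 1 held the highest alveolar progenitor sum among HSL libraries (501 against 130 to 341 CPM) and the lowest hormone-sensing sum among AP libraries (455 against 893 to 2240 CPM).

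**Figure D1:**
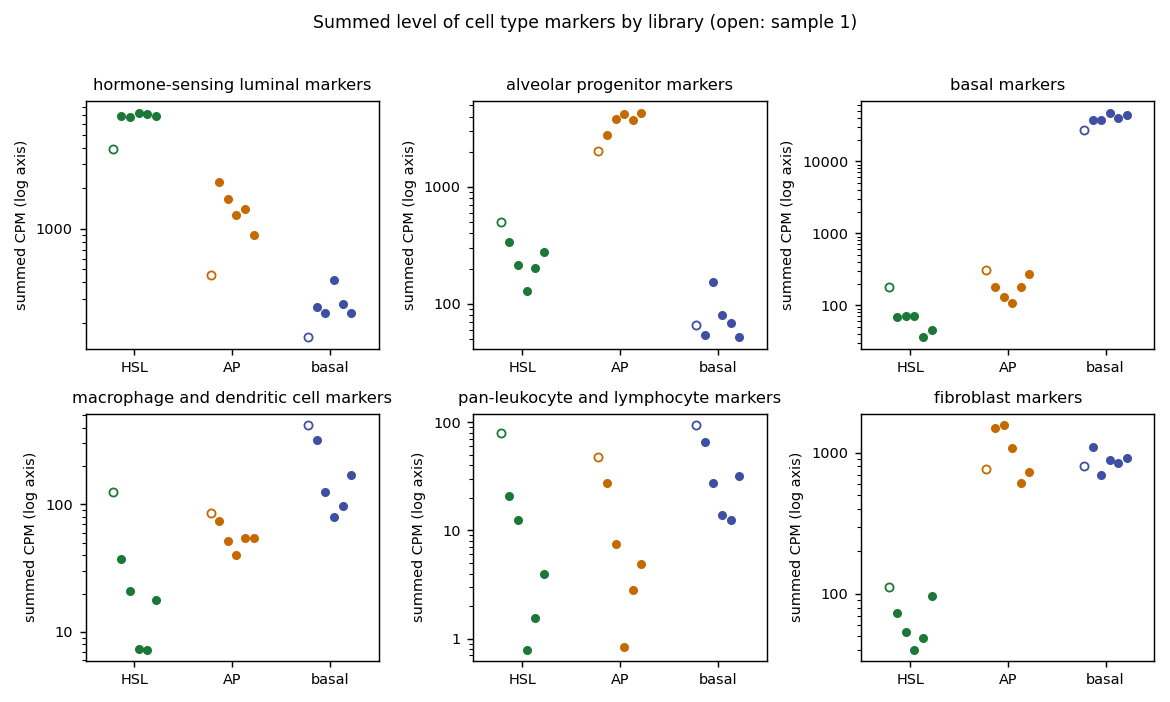
Summed CPM of 6 lists of cell type markers in each library on a log axis, with HSL, AP and basal libraries from left to right, sample 1 as an open point and samples 2 to 6 as filled points. Each epithelial list was highest in its own population, fibroblast sums were lower in HSL (40.3 to 111 CPM) than in AP (614 to 1580 CPM) and basal libraries (691 to 1100 CPM), and leukocyte sums were highest in sample 1 of each population.

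Counts were compared by edgeR's quasi-likelihood test, with no pairing of libraries by sample number unless a block is named. P-values were adjusted by the Benjamini-Hochberg method over the 16471 genes that passed a filter on low counts. A gene is called at an adjusted p under 0.05. Fold changes are log2 ± standard error, of the first-named population over the second. Of the 40 genes 30 passed the filter. The other 10 (Tlr1, Myd88, S100a8, S100a9, Saa1, Saa2, Saa3, Orm1, Ccl20 and Il1a) did not, and the highest value of any of them in any library was 2.13 CPM. Their total over all libraries was at most 220 counts per gene.

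HSL cells held most of the tested defence genes at lower levels than AP cells. Between HSL and AP libraries 3 of the 30 were higher in HSL (all genes: 19.8%), 19 were lower (all genes: 20.1%) and 8 were not called. All 22 calls (all genes: 39.9% called) were at least 2-fold (all genes: 8.45% higher and 13.5% lower by that much). The libraries did not overlap for 2 of those higher (all genes: 9.56%) and 9 of those lower (all genes: 11%). The median log2 fold change was -1.44, against -0.0114 for all genes tested.

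In HSL against basal libraries 9 were higher (all genes: 27.8%), 13 were lower (all genes: 30.6%) and 8 were not called, with a median of -0.551 against -0.0635 for all genes. At least 2-fold were 8 of those higher (all genes: 15.5%) and 13 of those lower (all genes: 21.9%). Libraries did not overlap for 7 higher (all genes: 16.8%) and 9 lower genes (all genes: 20.1%). In total 22 of 30 were called (all genes: 58.4%).

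Between AP and basal libraries 14 were higher in AP (all genes: 21.5%), 6 were lower (all genes: 23.1%) and 10 were not called. All 20 calls (all genes: 44.7% called) were at least 2-fold (all genes: 12.1% higher and 15.9% lower). The libraries did not overlap for 9 of the genes higher in AP (all genes: 11.5%) and 4 of those lower (all genes: 14.4%). The median was 0.903, against -0.00132 for all genes. These counts cover only the genes that passed the filter. They include Tlr6, which passed it through its basal libraries, among the genes lower in HSL and in AP than in basal libraries without overlap.

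By mean level, 6 of the 30 were highest in HSL, 14 in AP and 10 in basal libraries, while 14 were lowest in HSL, 3 in AP and 13 in basal libraries. A call in all 3 comparisons was made for 12 genes, in 2 comparisons for 13 and in 1 for 2. Nod2, Nos2 and Il1b had none. These counts were not made over all genes, so they are not shown to be particular to the 30.

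File identifiers fall into 2 runs, samples 1 to 3 and samples 4 to 6, each with 3 libraries per population; no label records a batch. Samples 1 to 3 alone gave 0 genes higher and 8 lower for HSL against AP by edgeR (3 and 16 at an unadjusted p under 0.05), 8 and 10 for HSL against basal, and 11 and 4 for AP against basal. All genes called there were 1491 of 16823 for HSL against AP (29.7% of them higher), 5674 for HSL against basal and 3718 for AP against basal libraries. Within samples 4 to 6 alone the member counts were 3 and 18, 9 and 14, and 13 and 6. All genes called were 7090, 9835 and 7693 of 16197 in the same order. Without sample 1 the member counts were 4 and 20, 9 and 15, and 14 and 6, and all genes called 7898, 10651 and 8352 of 16450. With total counts in place of TMM factors the members gave 3 and 19, 9 and 13, and 14 and 4, while the share of all calls that were higher in HSL than in AP moved to 35.6%, against 49.6% with TMM factors. All genes called with total counts were 6277, 9194 and 7426 of 16471 in the same order. That scaling placed the median of all genes at -0.185 for HSL against AP and at 0.136 for AP against basal libraries.

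**Figure D2:**
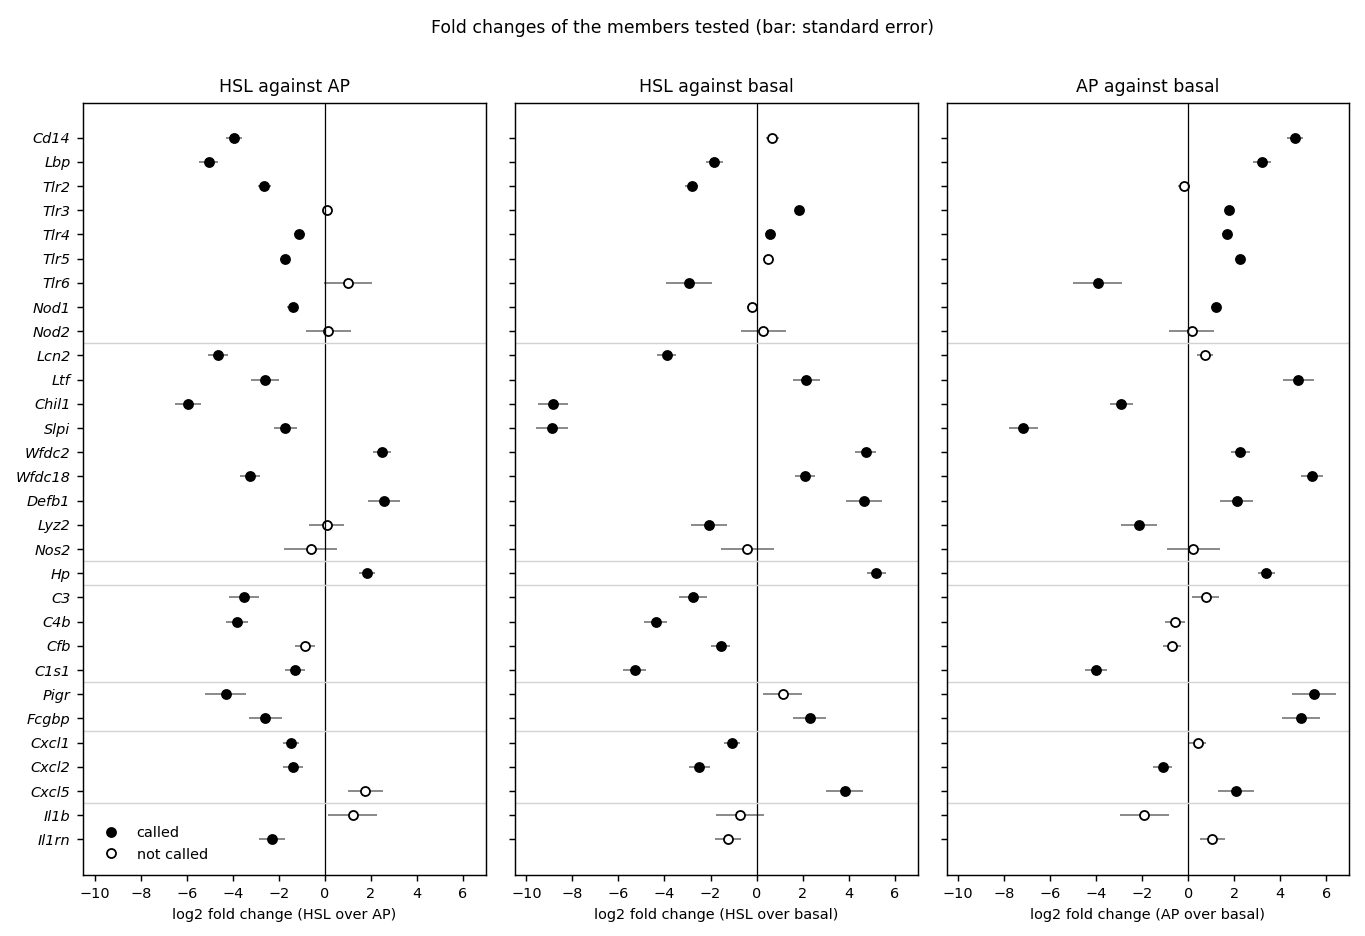
Log2 fold changes of the 30 genes tested in HSL against AP, HSL against basal and AP against basal libraries, grouped by role from pattern receptors at the top to the interleukin 1 system at the bottom, with bars for the standard error. Filled points mark calls at an adjusted p under 0.05: 22 for HSL against AP, 22 for HSL against basal and 20 for AP against basal libraries.

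The receptors for bacterial lipopolysaccharide were highest in AP libraries. CD14 is a surface co-receptor that takes up lipopolysaccharide and hands it to TLR4. Cd14 stood at 54.3 to 184 CPM (median 76.5) in HSL, 852 to 2097 CPM (median 1592) in AP and 48.3 to 72.7 CPM (median 61.5) in basal libraries. Every AP library was above every HSL and basal library. Cd14 was 15.5-fold lower in HSL than in AP (log2 -3.95 ± 0.34, adjusted p = 2.04e-07) and 25-fold higher in AP than in basal libraries (log2 4.64 ± 0.35, adjusted p = 4.98e-09). Between HSL and basal libraries it was not called (log2 0.69 ± 0.3, adjusted p = 0.0562; without sample 4, adjusted p = 0.031; by DESeq2, 0.0486). In HSL libraries Cd14 was highest in sample 1, the library with the highest alveolar progenitor marker sum; the part of that in its level was not tested.

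LBP, a secreted protein that brings lipopolysaccharide to CD14, was also highest in AP and was lowest in HSL libraries. Lbp ran from 0.484 to 2.23 CPM (median 1.8) in HSL, 17.3 to 82.2 CPM (median 53.5) in AP and 3.38 to 7.68 CPM (median 5.56) in basal libraries, and no pair of populations overlapped. HSL libraries were 33-fold below AP (log2 -5.04 ± 0.42, adjusted p = 1.78e-07) and 3.56-fold below basal libraries (log2 -1.83 ± 0.37, adjusted p = 3.81e-04). AP libraries were 9.26-fold above basal ones (log2 3.21 ± 0.38, adjusted p = 1.82e-06).

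TLR4 itself, the signalling receptor for lipopolysaccharide, followed with smaller differences. Tlr4 was at 14.4 to 27.4 CPM (median 22.4) in HSL, 24.4 to 60.4 CPM (median 46.5) in AP and 11.3 to 23.4 CPM (median 12.1) in basal libraries. AP libraries did not overlap basal ones, and the lowest of them, sample 1, fell among the HSL values. Tlr4 was lower in HSL than in AP (log2 -1.11 ± 0.23, adjusted p = 7.48e-04) and higher in AP than in basal libraries (log2 1.69 ± 0.23, adjusted p = 7.92e-06). The call for HSL against basal libraries (log2 0.58 ± 0.22, adjusted p = 0.0329) was lost without sample 2 (adjusted p = 0.0829), sample 4 (0.131), sample 5 (0.111) or sample 6 (0.197) and with no filter on low counts (0.0671). In samples 1 to 3 alone that difference was log2 0.0738 (adjusted p = 0.901), and the call for HSL against AP was lost (0.0722).

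Receptors for other ligands differed in where they were high. Of 11 pattern receptors and adaptors, 9 were tested: HSL against AP gave 0 higher and 6 lower (all genes: 19.8% and 20.1%). HSL against basal gave 2 and 3, or 22.2% and 33.3%, near the share of all genes (27.8% and 30.6%). AP against basal gave 6 and 1 (all genes: 21.5% and 23.1%). TLR2 recognises bacterial lipopeptides together with TLR1 or TLR6. Tlr2 was at 4.83 to 12.5 CPM (median 8.14) in HSL, 29.5 to 85.9 CPM (median 47.2) in AP and 34.7 to 72.7 CPM (median 63.4) in basal libraries. AP and basal libraries overlapped broadly and all lay above the HSL libraries. Tlr2 was lower in HSL than in AP (log2 -2.62 ± 0.28, adjusted p = 1.34e-06) and than in basal libraries (log2 -2.81 ± 0.28, adjusted p = 1.23e-07), and it was not called between AP and basal libraries (log2 -0.19 ± 0.26, adjusted p = 0.581).

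TLR3, an endosomal receptor for double-stranded RNA, had another pattern: both luminal populations were above basal cells. Tlr3 stood at 27.5 to 35.6 CPM (median 30.8) in HSL, 25 to 34.2 CPM (median 28.6) in AP and 5.93 to 11.3 CPM (median 7.81) in basal libraries. HSL and AP values interleaved, and the basal libraries lay apart below them. Tlr3 was 3.62-fold higher in HSL (log2 1.86 ± 0.15, adjusted p = 1.04e-08) and 3.43-fold higher in AP (log2 1.78 ± 0.15, adjusted p = 2.89e-08) than in basal libraries. The difference between HSL and AP was 0.08 ± 0.15 (adjusted p = 0.704), with a sign that changed under other settings.

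The flagellin receptor TLR5 and NOD1, a cytosolic sensor of bacterial cell wall peptides, were highest in AP libraries. Tlr5 ran from 3.83 to 9.07 CPM (median 6.2) in HSL, 17.2 to 25 CPM (median 21.1) in AP and 2.73 to 6.29 CPM (median 4.23) in basal libraries, and AP libraries overlapped neither of the others. Tlr5 was lower in HSL than in AP (log2 -1.73 ± 0.22, adjusted p = 6.96e-06) and higher in AP than in basal libraries (log2 2.23 ± 0.22, adjusted p = 1.71e-07). Between HSL and basal libraries Tlr5 was not called (log2 0.5 ± 0.21, adjusted p = 0.0511; without sample 6, adjusted p = 0.0128; by DESeq2, 0.0388). Nod1 was at 16.9 to 26.4 CPM (median 23.1) in HSL, 25.8 to 70.6 CPM (median 64.9) in AP and 16.4 to 34.6 CPM (median 25.9) in basal libraries. The AP library of sample 1, at 25.8 CPM, fell inside the range of the other populations, and the other 5 AP libraries were all above it, from 56.8 CPM. Nod1 was lower in HSL than in AP (log2 -1.4 ± 0.22, adjusted p = 6.76e-05), higher in AP than in basal (log2 1.2 ± 0.22, adjusted p = 2.03e-04) and not called between HSL and basal libraries (log2 -0.21 ± 0.22, adjusted p = 0.432). In samples 1 to 3 alone Nod1 was not called for HSL against AP (adjusted p = 0.0648) or for AP against basal libraries (0.0989).

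The remaining receptors were at low levels. Tlr6, a partner of TLR2, averaged 0.111 ± 0.095 CPM in HSL, 0.0535 ± 0.116 in AP and 0.881 ± 0.566 in basal libraries, with 2 HSL and 4 AP libraries at 0. It was lower in HSL than in basal libraries (log2 -2.94 ± 1.0, adjusted p = 0.0177; without sample 6, adjusted p = 0.0551) and lower in AP than in basal cells (log2 -3.94 ± 1.05, adjusted p = 0.00502; without sample 1, log2 -6.21). Without sample 1 it was called higher in HSL than in AP (log2 3.31, adjusted p = 0.0287), against an adjusted p of 0.482 with all libraries. Tlr6 had 252 counts in basal, 27 in HSL and 17 in AP libraries. It passed the filter through its basal libraries, so its lower calls are not independent of that filter. Nod2, a cytosolic sensor of muramyl dipeptide, averaged 1.03 ± 0.776, 0.938 ± 0.487 and 0.847 ± 1.5 CPM in HSL, AP and basal libraries and was not called. Tlr1 did not exceed 1.12 CPM in any library. Myd88, the adaptor shared by most of these receptors, is listed at 0 in all 18 libraries. Its whole span is shared with other genes, and 1134 of 1264 protein-coding genes (89.7%) with such a span are at 0 everywhere, so its level cannot be read from these counts.

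Tlr2 and Tlr3 are shown with the bases before their start because both hold an NF-kB consensus there while their levels ran differently across the populations. The 250 bases before the RefSeq start (GRCm38.p6) are given 5′ to 3′ on the strand of the gene, with the NF-kB consensus in capitals. Tlr2 is from chr3:83841609-83841858, minus strand, and Tlr3 from chr8:45410381-45410630, minus strand.
Tlr2: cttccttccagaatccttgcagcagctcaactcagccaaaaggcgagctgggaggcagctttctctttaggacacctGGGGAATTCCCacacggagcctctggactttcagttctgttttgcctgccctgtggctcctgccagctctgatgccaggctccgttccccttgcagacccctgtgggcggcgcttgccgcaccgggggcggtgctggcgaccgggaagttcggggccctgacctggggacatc
Tlr3: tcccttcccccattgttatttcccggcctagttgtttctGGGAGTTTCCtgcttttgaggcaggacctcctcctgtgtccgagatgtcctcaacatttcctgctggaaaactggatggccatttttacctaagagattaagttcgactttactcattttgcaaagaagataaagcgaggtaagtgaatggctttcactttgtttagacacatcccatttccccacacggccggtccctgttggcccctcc
The Tlr2 match spans the bases 173 to 163 before the start, where overlapping matches read on both strands, and the Tlr3 match the bases 211 to 202. A match describes the letters only and is not shown to be bound.

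Antimicrobial proteins were split among the populations. Of the 9 tested, HSL against AP gave 2 higher and 5 lower (all genes: 19.8% and 20.1%). HSL against basal gave 4 and 4 (all genes: 27.8% and 30.6%), and AP against basal 4 and 3 (all genes: 21.5% and 23.1%). Wfdc2 and Defb1 were highest in HSL, Lcn2, Ltf and Wfdc18 in AP, and Chil1, Slpi and Lyz2 in basal libraries.

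Lipocalin 2 captures the iron carriers of bacteria. Lcn2 ran from 57.6 to 209 CPM (median 104) in HSL, 1267 to 4932 CPM (median 3023) in AP and 893 to 2775 CPM (median 1803) in basal libraries. Every HSL library was below every AP and basal library, while AP and basal values overlapped. HSL libraries were 24.9-fold below AP (log2 -4.64 ± 0.42, adjusted p = 2.92e-07) and 15-fold below basal libraries (log2 -3.91 ± 0.41, adjusted p = 1.93e-07). AP against basal libraries was not called (log2 0.73 ± 0.36, adjusted p = 0.113).

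Lactoferrin is an iron-binding protein of milk. Ltf stood at 194 to 696 CPM (median 426) in HSL, 142 to 3934 CPM (median 2941) in AP and 13.2 to 157 CPM (median 92.1) in basal libraries. Sample 1 was lowest in each population; its AP library, at 142 CPM, lay below all 6 HSL libraries, and the other 5 AP libraries lay above them all. Ltf was lower in HSL than in AP (log2 -2.6 ± 0.61, adjusted p = 0.00225) and higher in HSL (log2 2.17 ± 0.6, adjusted p = 0.00453) and in AP (log2 4.77 ± 0.67, adjusted p = 1.21e-05) than in basal libraries. In samples 1 to 3 alone Ltf was not called for HSL against AP (adjusted p = 0.266) or for HSL against basal libraries (0.148).

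Of the 30 genes, Chil1 and Slpi were the furthest below basal levels in HSL libraries. CHIL1 is a chitinase-like lectin with no chitinase activity. Its gene ran from 1.01 to 6.92 CPM (median 4.43) in HSL, 65.2 to 448 CPM (median 238) in AP and 656 to 2951 CPM (median 2046) in basal libraries, without overlap between any pair. Chil1 was 61.5-fold lower in HSL than in AP (log2 -5.94 ± 0.57, adjusted p = 4.46e-07), 460.4-fold lower in HSL than in basal (log2 -8.85 ± 0.64, adjusted p = 2.19e-09) and 7.49-fold lower in AP than in basal libraries (log2 -2.9 ± 0.49, adjusted p = 8.66e-05). SLPI, a small secreted inhibitor of neutrophil elastase with antibacterial activity, is built from whey acidic protein (WAP) domains. Slpi was at 1.32 to 12.9 CPM (median 2.8) in HSL, 8.87 to 26.1 CPM (median 13.2) in AP and 555 to 2764 CPM (median 2542) in basal libraries, and the basal libraries stood far above both luminal populations. It was 474-fold lower in HSL (log2 -8.89 ± 0.68, adjusted p = 4.64e-09) and 144-fold lower in AP (log2 -7.17 ± 0.63, adjusted p = 4.36e-08) than in basal libraries. Without sample 1 the difference between HSL and basal libraries was log2 -9.82 and that between HSL and AP was -2.46, against -1.72 ± 0.51 with all libraries (adjusted p = 0.0112). The call between HSL and AP was lost without sample 2 (adjusted p = 0.0578) or sample 6 (0.0519).

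The promoters of Lcn2 and Chil1 are shown because each gene was lower in HSL than in both other populations. Lcn2 (chr2:32387740-32387989, minus strand) has the C/EBP core in capitals, read on the other strand as TTNNGNAA, and Chil1 (chr1:134181906-134182155, plus strand) the NF-kB consensus; both are the 250 bases before the RefSeq start in GRCm38.p6.
Lcn2: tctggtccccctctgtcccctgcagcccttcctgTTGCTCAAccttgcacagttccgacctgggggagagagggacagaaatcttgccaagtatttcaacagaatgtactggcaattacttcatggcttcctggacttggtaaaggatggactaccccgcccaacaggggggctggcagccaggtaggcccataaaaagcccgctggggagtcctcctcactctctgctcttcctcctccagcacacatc
Chil1: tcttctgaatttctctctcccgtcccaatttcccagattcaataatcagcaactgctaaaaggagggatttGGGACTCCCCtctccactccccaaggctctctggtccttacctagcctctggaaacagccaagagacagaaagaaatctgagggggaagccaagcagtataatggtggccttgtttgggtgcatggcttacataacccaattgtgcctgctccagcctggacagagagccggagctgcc
The Lcn2 core lies 216 to 209 bases before the start and the Chil1 consensus 179 to 170 bases before it. Chil1 also holds a C/EBP core, 52 to 45 bases before the start, which is left in lower case.

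Other WAP domain genes were luminal. WFDC2, a secreted epithelial WAP protein, was highest in HSL cells. Wfdc2 ran from 821 to 2953 CPM (median 2364) in HSL, 93.2 to 623 CPM (median 439) in AP and 38.6 to 154 CPM (median 73.2) in basal libraries. HSL libraries were above all others, and the AP library of sample 1, at 93.2 CPM, was the only one of 6 AP libraries within the basal range. Wfdc2 was higher in HSL than in AP (log2 2.48 ± 0.41, adjusted p = 1.09e-04), higher in HSL than in basal (log2 4.75 ± 0.45, adjusted p = 6.66e-08) and higher in AP than in basal libraries (log2 2.27 ± 0.41, adjusted p = 1.62e-04). Hormone-sensing markers in AP libraries were also lowest in sample 1, and their part in the Wfdc2 levels there was not tested. In GENCODE M21, Slpi and Wfdc2 lie 173 kb apart on chromosome 2 (Slpi at 164354070 to 164389095 and Wfdc2 at 164562413 to 164568510 in GRCm38). The counted Slpi is 2438 bases wide, against a span of 35026 there, so the distance holds for that annotation only. The gradients of Slpi and Wfdc2 ran in opposite directions between HSL and basal cells.

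WFDC18, known in the mouse mammary gland as Expi, was an AP transcript. Wfdc18 was at 89 to 702 CPM (median 185) in HSL, 1740 to 2935 CPM (median 2434) in AP and 40.8 to 84.9 CPM (median 54) in basal libraries, and no pair of populations overlapped. Wfdc18 was lower in HSL than in AP (log2 -3.25 ± 0.43, adjusted p = 1.32e-05; without sample 1, log2 -3.87), higher in HSL than in basal (log2 2.1 ± 0.41, adjusted p = 2.65e-04) and 41-fold higher in AP than in basal libraries (log2 5.36 ± 0.48, adjusted p = 4.87e-08). Its highest HSL value was that of sample 1 (702.5 CPM, against 89.0 to 237 in the other 5), where alveolar progenitor markers were highest too; the part of these in the level was not tested.

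Beta-defensin 1, a cationic peptide made constitutively by epithelia, was highest in HSL cells, with wide spread. Defb1 ran from 31.2 to 374 CPM (median 61.8) in HSL, 5.44 to 41.9 CPM (median 19.4) in AP and 1.43 to 13.4 CPM (median 2.96) in basal libraries. The HSL libraries did not overlap the basal ones, and in each population sample 1 was highest. Defb1 was higher in HSL than in AP (log2 2.57 ± 0.71, adjusted p = 0.00773) and than in basal libraries (log2 4.68 ± 0.79, adjusted p = 5.52e-05). In AP against basal libraries it was higher (log2 2.1 ± 0.71, adjusted p = 0.0214), a call that was lost without sample 2 (adjusted p = 0.079) or sample 5 (0.0698).

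Lysozyme M, an enzyme that cleaves bacterial cell walls and is abundant in macrophages, was highest in basal libraries. Lyz2 was at 3.26 to 77.3 CPM (median 17.8) in HSL, 3.92 to 65.2 CPM (median 21.8) in AP and 51.1 to 238 CPM (median 115) in basal libraries, and all 3 ranges overlapped. Lyz2 was lower in HSL (log2 -2.08 ± 0.78, adjusted p = 0.03) and in AP (log2 -2.15 ± 0.79, adjusted p = 0.0328) than in basal libraries. The HSL call was lost without sample 3 (adjusted p = 0.0719) or sample 6 (0.0865), and the AP call without sample 2 (0.0584), sample 3 (0.0795), sample 5 (0.0518) or sample 6 (0.0953) and with total counts as the scaling (0.0549). Reads of the near-identical Lyz1 may be split with it. Markers of macrophages and dendritic cells moved in the same direction: of 10 measured, HSL against basal gave 0 higher and 7 lower (all genes: 27.8% and 30.6%). AP against basal gave 1 and 6 (all genes: 21.5% and 23.1%). They summed to 7.28 to 124 CPM in HSL, 40.3 to 85.8 in AP and 79.3 to 420 in basal libraries, with the highest value in sample 1 of each population, and none of the 10 was at 0 in a population mean. Their part in the Lyz2 result was not tested.

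The calprotectin genes and inducible nitric oxide synthase were at low levels. S100a8 and S100a9, which encode the zinc-binding calprotectin of neutrophils and lie 22.6 kb apart on chromosome 3, reached at most 2.13 and 1.15 CPM, both in AP sample 1. Neutrophil and monocyte markers (10 listed, 2 tested) summed to 0.506 to 2.35 CPM in HSL, 0.0452 to 9.72 in AP and 0.292 to 2.02 in basal libraries, highest in that same AP library. Elane and Mpo were at 0 in all HSL libraries. Nos2 averaged 0.418 ± 0.553 CPM in HSL, 0.648 ± 0.529 in AP and 0.559 ± 0.558 in basal libraries and was not called.

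**Figure D3:**
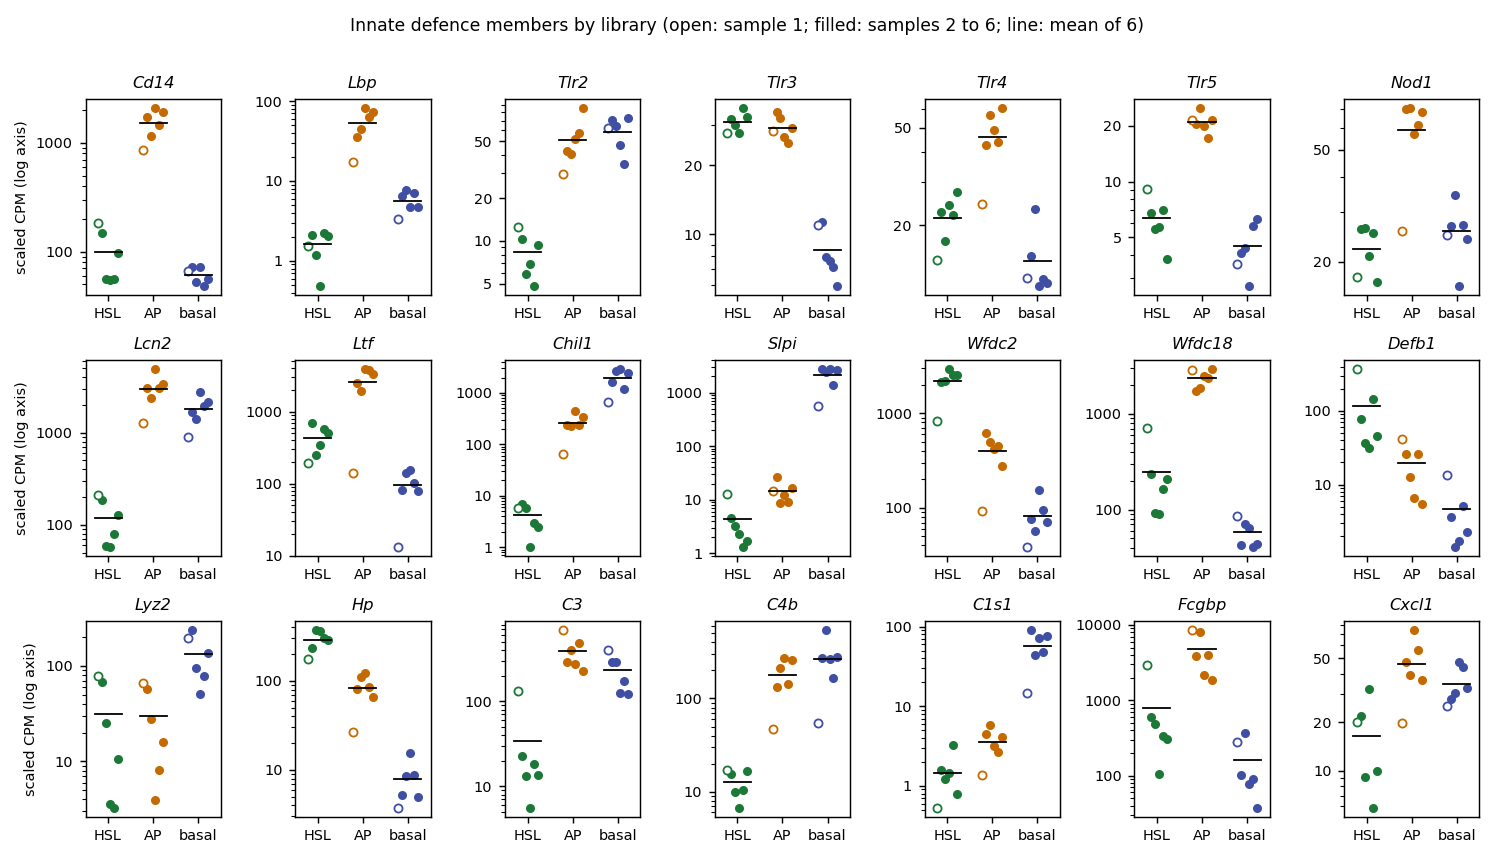
Scaled CPM on log axes for the 21 genes with a mean of at least 20 CPM in a population and a call of at least 2-fold, with HSL, AP and basal libraries from left to right in each panel. Open points are sample 1, filled points samples 2 to 6 and black lines the means of 6 libraries. Cd14, Lbp and Wfdc18 were highest in all AP libraries, Wfdc2 and Hp in all HSL libraries, and Chil1, Slpi and C1s1 in all basal libraries.

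Of the 5 acute phase genes Hp alone passed the filter, and it was highest in HSL libraries. Haptoglobin binds free haemoglobin. Hp stood at 174 to 376 CPM (median 296) in HSL, 26.7 to 124 CPM (median 83.6) in AP and 3.74 to 15.6 CPM (median 6.96) in basal libraries, with no overlap between any pair. It was 3.52-fold higher in HSL than in AP (log2 1.82 ± 0.35, adjusted p = 4.95e-04), 37-fold higher in HSL than in basal (log2 5.21 ± 0.41, adjusted p = 6.2e-09) and 10.5-fold higher in AP than in basal libraries (log2 3.39 ± 0.38, adjusted p = 7.62e-07). The serum amyloid A genes Saa1, Saa2 and Saa3, which lie within a cluster on chromosome 7, had 35, 15 and 36 counts over all 18 libraries. Orm1, which encodes the serum protein orosomucoid, had 15 counts, all in basal libraries. Saa1 and Saa2, and the Orm genes, are near-identical copies, and their counts are uncertain for that reason.

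Complement genes were lowest in HSL libraries. C3 is the component on which all complement routes converge. Its gene ran from 5.57 to 133 CPM (median 16) in HSL, 224 to 694 CPM (median 348) in AP and 121 to 399 CPM (median 232) in basal libraries. HSL libraries did not overlap AP ones, the HSL library of sample 1 reached into the basal range, and sample 1 was the highest of its population each time. C3 was lower in HSL than in AP (log2 -3.52 ± 0.65, adjusted p = 3.07e-04) and than in basal libraries (log2 -2.76 ± 0.63, adjusted p = 9.75e-04), and not called between AP and basal libraries (log2 0.76 ± 0.59, adjusted p = 0.318; in samples 4 to 6 alone, adjusted p = 0.0311). Without sample 1 the first 2 differences were log2 -4.54 and -3.80.

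C4b, a component of the classical and lectin routes, was lowest in HSL libraries too. It was at 6.69 to 17 CPM (median 12.9) in HSL, 46.5 to 270.1 CPM (median 177) in AP and 54.7 to 546 CPM (median 269) in basal libraries, and the HSL libraries lay below all others. C4b was lower in HSL than in AP (log2 -3.81 ± 0.49, adjusted p = 8.73e-06) and than in basal libraries (log2 -4.38 ± 0.5, adjusted p = 6.22e-07), and was not called between AP and basal libraries (log2 -0.58 ± 0.44, adjusted p = 0.303). Its near-identical copy C4a may share its reads.

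C1s1, a serine protease of the first complement complex, was a basal transcript. C1s1 ran from 0.529 to 3.26 CPM (median 1.32) in HSL, 1.36 to 5.82 CPM (median 3.63) in AP and 14.7 to 91 CPM (median 60.02) in basal libraries. All basal libraries were above all luminal ones, with sample 1 the lowest in each population. C1s1 was lower in HSL (log2 -5.3 ± 0.51, adjusted p = 8.21e-08) and in AP (log2 -4.0 ± 0.48, adjusted p = 1.83e-06) than in basal libraries. Between HSL and AP libraries it was also lower in HSL (log2 -1.3 ± 0.45, adjusted p = 0.0271), a call that was lost without sample 2 (adjusted p = 0.0745), sample 3 (0.11), sample 4 (0.0697) or sample 6 (0.0907). Gm16567 shares 94.9% of its span, so its level is uncertain. Cfb, complement factor B of the alternative route, had at most 0.565 CPM with 99.4% of its span shared; it was lower in HSL than in basal libraries (log2 -1.56 ± 0.42, adjusted p = 0.00374), and without sample 1 also in HSL than in AP (adjusted p = 0.0155, against 0.11 with all libraries).

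Markers of fibroblasts, which also make complement proteins, were lower in HSL as these genes were. All 6 were lower in HSL than in AP (all genes: 20.1%) and than in basal libraries (all genes: 30.6%). AP against basal gave 3 higher and 1 lower (all genes: 21.5% and 23.1%). Their sums were 40.3 to 111 CPM in HSL, 614 to 1580 in AP and 691 to 1100 in basal libraries, and none was at 0. Their part in the complement results was not tested.

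The C3 promoter is shown because it holds 3 runs in capitals that carry the C/EBP core TTNNGNAA within the last 70 bases before the start. It is the 250 bases before the RefSeq start in GRCm38.p6, chr17:57228137-57228386, minus strand.
C3: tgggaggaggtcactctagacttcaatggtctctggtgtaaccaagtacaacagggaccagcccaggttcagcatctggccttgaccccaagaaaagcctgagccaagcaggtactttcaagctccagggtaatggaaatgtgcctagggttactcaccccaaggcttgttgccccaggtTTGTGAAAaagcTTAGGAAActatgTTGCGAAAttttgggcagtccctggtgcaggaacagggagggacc
The runs lie 70 to 63, 58 to 51 and 45 to 38 bases before the start, and the last reads as the core on both strands.

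Both mucosal genes were highest in AP libraries. FCGBP is a mucin-like secreted protein of epithelial mucus. Fcgbp stood at 105 to 2919 CPM (median 412) in HSL, 1862 to 8634 CPM (median 3936) in AP and 37.2 to 373 CPM (median 95.8) in basal libraries. AP libraries did not overlap basal ones, and the HSL library of sample 1, at 2919 CPM, was inside the AP range while the other 5 HSL libraries were below it, at 105 to 608 CPM. Fcgbp was lower in HSL than in AP (log2 -2.58 ± 0.73, adjusted p = 0.00884; without sample 1, log2 -3.45), higher in HSL than in basal (log2 2.31 ± 0.72, adjusted p = 0.0107; without sample 1, 1.42, adjusted p = 0.0458) and 29.6-fold higher in AP than in basal libraries (log2 4.89 ± 0.81, adjusted p = 7.6e-05). PIGR carries IgA and IgM across the epithelium into secretions. Pigr averaged 0.963 ± 0.867 CPM in HSL, 19.2 ± 10.1 in AP and 0.439 ± 0.455 in basal libraries, and its AP libraries did not overlap the basal ones. Pigr was lower in HSL than in AP (log2 -4.31 ± 0.9, adjusted p = 9.38e-04; without sample 2, log2 -4.91) and 43.4-fold higher in AP than in basal libraries (log2 5.44 ± 0.96, adjusted p = 1.36e-04). Between HSL and basal libraries Pigr was not called (log2 1.13 ± 0.84, adjusted p = 0.261), but it was without sample 4 (log2 2.03, adjusted p = 0.0364).

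The neutrophil-attracting chemokines did not share an order. CXCL1 and CXCL2 draw neutrophils through the receptor CXCR2, and their genes lie 10.8 kb apart on chromosome 5. Cxcl1 ran from 5.87 to 32 CPM (median 14.9) in HSL, 19.7 to 74.9 CPM (median 43.3) in AP and 25.3 to 47 CPM (median 31.5) in basal libraries, and all 3 ranges overlapped. Cxcl1 was lower in HSL than in AP (log2 -1.47 ± 0.37, adjusted p = 0.00363) and was not called between AP and basal libraries (log2 0.4 ± 0.36, adjusted p = 0.386). The lower level in HSL than in basal libraries (log2 -1.07 ± 0.36, adjusted p = 0.0173) was not called without sample 3 (adjusted p = 0.0537), sample 5 (0.0752) or sample 6 (0.055).

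Cxcl2 was highest in basal libraries. It averaged 2.08 ± 1.19 CPM in HSL, 5.4 ± 1.96 in AP and 11.7 ± 5.09 in basal libraries, and HSL and basal libraries did not overlap (log2 -2.49 ± 0.45, adjusted p = 1.04e-04). Cxcl2 was lower in HSL than in AP (log2 -1.37 ± 0.43, adjusted p = 0.0166; without sample 4, adjusted p = 0.0549). The call for AP against basal libraries (log2 -1.12 ± 0.43, adjusted p = 0.0398) was lost without sample 1 (0.115), sample 2 (0.0615), sample 5 (0.0509) or sample 6 (0.133), with total counts as the scaling (0.0734) and with no filter on low counts (0.0633). Cxcl5, another ligand of that receptor, went the other way at low levels, with 3.06 ± 3.55 CPM in HSL, 0.895 ± 0.752 in AP and 0.216 ± 0.168 in basal libraries. Cxcl5 was higher in HSL than in basal libraries (log2 3.82 ± 0.82, adjusted p = 6.03e-04) without overlap. It was higher in AP than in basal libraries as well (log2 2.06 ± 0.78, adjusted p = 0.0382), but not without sample 2 (adjusted p = 0.134), sample 3 (0.0714), sample 5 (0.0714) or sample 6 (0.0619). Between HSL and AP libraries it was not called (log2 1.76 ± 0.74, adjusted p = 0.0671), but was with the sample number as a block (log2 1.53, adjusted p = 0.0214) and by DESeq2 (adjusted p = 0.0378). Ccl20, a ligand of CCR6, had 31 counts in all.

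Immediate early and dissociation response transcripts, which rise when tissue is digested, were also unequal. Of 13 measured, HSL against AP gave 3 higher and 6 lower (all genes: 19.8% and 20.1%). HSL against basal gave 3 and 8 (all genes: 27.8% and 30.6%), and AP against basal 0 and 3 (all genes: 21.5% and 23.1%). The share lower in AP than in basal libraries, 23.1%, was that of all genes. They summed to 9710 to 13500 CPM in HSL, 7210 to 15500 in AP and 8550 to 22800 in basal libraries, and none was at 0. Their part in the chemokine levels was not tested.

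Cxcl1 and Cxcl2 are shown together because the same 11 letters stand in capitals in both promoters. The NF-kB consensus matches them on both strands. Each line is the 250 bases before the RefSeq start in GRCm38.p6, for Cxcl1 at chr5:90890995-90891244, plus strand, and for Cxcl2 at chr5:90903649-90903898, plus strand.
Cxcl1: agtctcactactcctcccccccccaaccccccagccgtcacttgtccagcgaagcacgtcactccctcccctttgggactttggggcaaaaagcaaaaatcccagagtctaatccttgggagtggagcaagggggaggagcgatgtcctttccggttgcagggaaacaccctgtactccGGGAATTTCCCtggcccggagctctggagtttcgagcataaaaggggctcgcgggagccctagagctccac
Cxcl2: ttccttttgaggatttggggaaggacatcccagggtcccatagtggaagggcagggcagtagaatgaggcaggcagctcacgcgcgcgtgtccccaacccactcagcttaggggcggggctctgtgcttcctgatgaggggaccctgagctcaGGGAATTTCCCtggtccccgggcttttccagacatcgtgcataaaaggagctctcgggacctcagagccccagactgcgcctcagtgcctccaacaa
The run lies 71 to 61 bases before the start of Cxcl1 and 97 to 87 bases before that of Cxcl2.

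Il1b and Il1rn were low, and their highest HSL and AP values were in sample 1. Il1b encodes the secreted cytokine, which is made above all by myeloid cells. Il1b ran from 0.126 to 21.4 CPM (median 1.15) in HSL, 0.231 to 6.87 CPM (median 0.471) in AP and 3.71 to 16.1 CPM (median 5.36) in basal libraries. Sample 1 stood above the other HSL and AP libraries, at 21.4 and 6.87 CPM, against 0.126 to 3.15 and 0.231 to 3.54 CPM in the other 5. No comparison was called with all libraries (log2 1.2 ± 1.06, adjusted p = 0.392 for HSL against AP, log2 -0.7 ± 1.04, adjusted p = 0.585 for HSL against basal and log2 -1.91 ± 1.08, adjusted p = 0.164 for AP against basal). With the sample number as a block Il1b was lower than in basal libraries both in HSL (log2 -2.35, adjusted p = 0.0068) and in AP libraries (-3.13, adjusted p = 0.00121), and without sample 1 it was so too (-2.62, adjusted p = 0.0189, and -2.82, adjusted p = 0.0166). An antisense gene, Il1bos, shares 18.9% of its span.

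The interleukin 1 receptor antagonist, which blocks the receptor, was highest in AP libraries. Il1rn averaged 1.26 ± 1.31 CPM in HSL, 6.26 ± 4.64 in AP and 3.03 ± 1.04 in basal libraries, with sample 1 highest among AP libraries (15.7 CPM, against 3.43 to 5.49 in the other 5). Il1rn was lower in HSL than in AP (log2 -2.29 ± 0.58, adjusted p = 0.00413). Between HSL and basal libraries it was not called (log2 -1.24 ± 0.56, adjusted p = 0.0677), but was with the sample number as a block (log2 -1.62, adjusted p = 0.00339), by DESeq2 (adjusted p = 0.0354) and without sample 1 (-1.93, adjusted p = 0.00126). In AP against basal libraries Il1rn was not called (log2 1.05 ± 0.56, adjusted p = 0.138). Il1a had 49 counts in all.

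Leukocyte and lymphocyte markers (8 listed, 7 tested) summed to 0.793 to 79.4 CPM in HSL, 0.837 to 48.3 in AP and 12.4 to 94.9 in basal libraries, and the highest sum was in sample 1 each time. The sum was lower in HSL than in the basal library of the same number in 6 of 6 samples, and lower in AP than in basal in 6 of 6. With all libraries and no block, 0 of the 7 was called in any comparison by edgeR or by DESeq2, and 0 reached an unadjusted p under 0.05. The same held by edgeR in samples 1 to 3 alone. Calls of these markers were not counted without sample 1 or in samples 4 to 6 alone. In samples 4 to 6 their sums were 0.793 to 3.95 CPM in HSL, 0.837 to 4.9 in AP and 12.4 to 31.6 in basal libraries. With the block in edgeR, HSL against basal gave 4 lower (all genes called: 11082 of 16471), AP against basal 3 lower (9072) and HSL against AP 0 (8374). The leukocyte counts at an unadjusted p under 0.05 were the same. The direction of those leukocyte marker calls was that of Il1b in the same fit. Ms4a1, a B cell marker, was at 0 in all 18 libraries, with its whole span shared. Laptm5, a leukocyte membrane protein gene, had the largest mean CPM of the 7 tested, a value not divided by gene length. It averaged 10.1 ± 14.8 CPM in HSL, 7.71 ± 9.33 in AP and 24.1 ± 18.5 in basal libraries. The sort included a stain for CD45, the general leukocyte antigen. The part of leukocytes in the interleukin 1 levels was not tested.

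**Figure D4:**
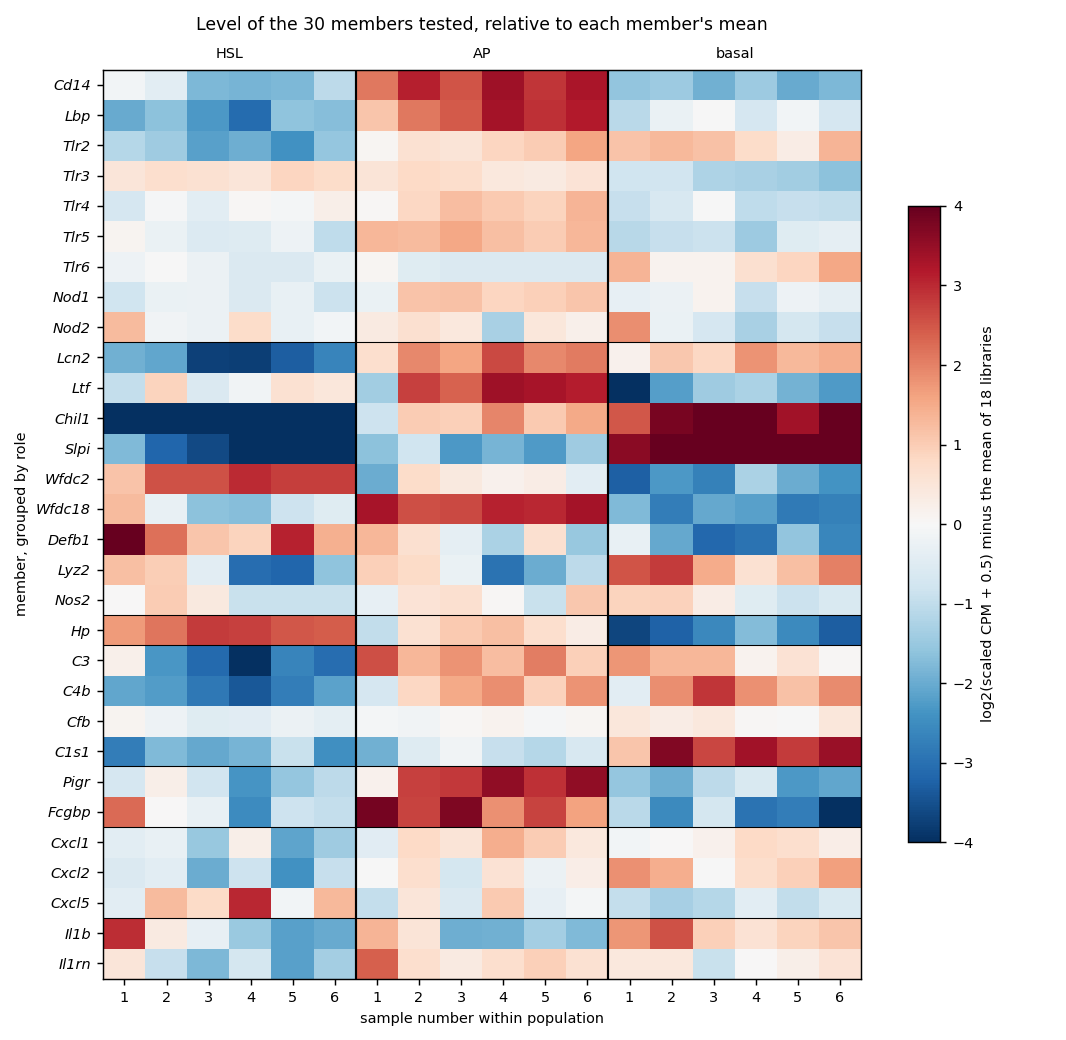
Log2(scaled CPM + 0.5) of the 30 genes tested minus the mean of each gene over 18 libraries, with the 6 HSL, 6 AP and 6 basal libraries from left to right and black lines between roles. Blocks of one colour within a population show Chil1 and Slpi high in basal, Wfdc2 and Hp high in HSL, and Cd14, Lbp and Wfdc18 high in AP libraries; the first column of each block, sample 1, departs from the others for Ltf, C3 and Il1b.

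Sample 1 differed from the others of its population in many of these genes. Its library was the lowest or the highest of 6 for 22 of the 30 genes in HSL, 22 in AP and 15 in basal libraries. No other sample number exceeded 13 in HSL or 12 in AP libraries, and sample 4 also reached 15 in basal libraries. The same count over all genes was not made, so it is not shown to be particular to these genes. Sample 1 also stood apart on the third principal component, which covers all genes tested. In AP libraries sample 1 was the lowest for 15 genes and the highest for 7, whereas in HSL libraries it was the lowest for 7 and the highest for 15. Ltf was lower in sample 1 than in the median of samples 2 to 6 in all 3 populations, by log2 ratios of -1.40 in HSL, -4.56 in AP and -2.90 in basal libraries. C3 was higher in all 3, by 3.24, 1.25 and 1.19, and so was Defb1, by 3.03, 1.68 and 2.31. Slpi moved in opposite directions, with 2.24 in HSL and -2.24 in basal libraries, and so did Lcn2, with 1.38 in HSL, -1.25 in AP and -1.12 in basal libraries. With 1 library per population these ratios have no replicate check.

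**Figure D5:**
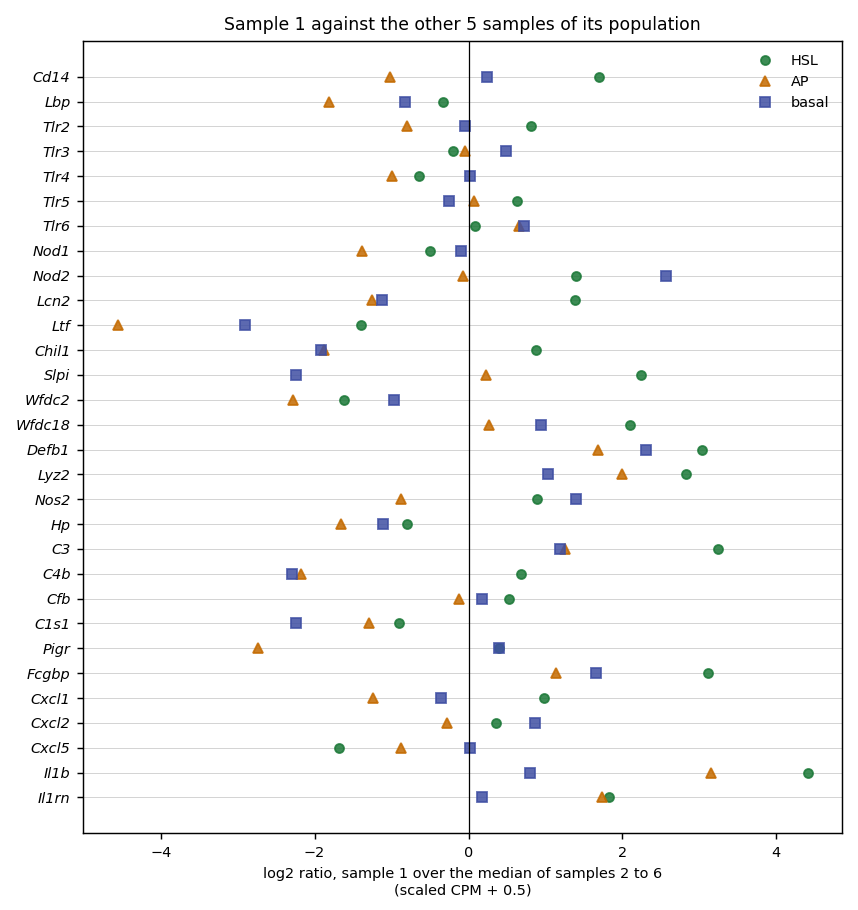
Log2 ratio of sample 1 to the median of samples 2 to 6 of the same population, for the 30 genes tested, with circles for HSL, triangles for AP and squares for basal libraries. Ltf, Wfdc2, Hp and C1s1 were lower in sample 1 in all 3 populations, and C3, Defb1, Lyz2, Fcgbp and Il1b were higher in all 3.

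Promoters of 30 of the 40 genes were in the RefSeq table, not the same 30 as those tested. The 250 bases before each start were searched on both strands. The NF-kB consensus stood in 6 of the 30 genes (20%), Tlr2, Tlr3, Chil1, Cxcl1, Cxcl2 and Ccl20, and in 1204 of 27025 genes of the table (4.46%; 3.9% of 32851 promoters). Of the 5 tested, Tlr2, Chil1, Cxcl1 and Cxcl2 were lower in HSL than in AP and than in basal libraries and Tlr3 was higher in HSL than in basal libraries. The Cxcl1 call against basal libraries was lost with some samples left out, as given above. Of all 30 members tested, 19 were lower in HSL than in AP (all genes: 20.1%) and 13 than in basal libraries (all genes: 30.6%). A link of the consensus to level was not tested. The C/EBP core TTNNGNAA was in 20 of the 30 genes (66.7%) and in 40.3% of all genes (36.8% of promoters). The STAT core TTCNNNGAA was in 3 genes (10%), Tlr1, Nod1 and Myd88, and in 8.13% of all genes (7.02% of promoters). A C/EBP core overlaps no counted NF-kB match in the printed windows.

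Adaptors, kinases and NF-kB factors carry the receptor signal to the nucleus. Of 30 listed, 29 were tested: HSL against AP gave 6 higher and 7 lower (all genes: 39.9% called), HSL against basal 12 and 5 (58.4%), and AP against basal 8 and 3 (44.7%). Calls of at least 2-fold numbered 1 and 1 for HSL against AP (all genes: 8.45% higher and 13.5% lower), 4 and 2 for HSL against basal (15.5% and 21.9%), and 1 and 1 for AP against basal (12.1% and 15.9%). Rela, the NF-kB subunit p65, averaged 265 ± 42.8 CPM in HSL, 504 ± 126 in AP and 341 ± 57.2 in basal libraries and was lower in HSL than in AP (log2 -0.93 ± 0.17, adjusted p = 2.93e-04). Nfkbia, the inhibitor IkB alpha and itself an NF-kB target, was at 602 ± 193, 563 ± 114 and 417 ± 41.3 CPM in the same order and higher in HSL than in basal libraries (log2 0.53 ± 0.18, adjusted p = 0.016). Irak2, a kinase downstream of MyD88, was higher in HSL (log2 2.24 ± 0.29, adjusted p = 2.46e-06) and in AP (log2 2.24 ± 0.29, adjusted p = 3.99e-06) than in basal libraries. Ripk2, the kinase of NOD1 and NOD2, was lower in AP than in basal libraries (log2 -1.32 ± 0.18, adjusted p = 7.46e-06). Ikbkg, the regulatory subunit of the IkB kinase, was higher in HSL than in AP (log2 0.79 ± 0.12, adjusted p = 4.59e-05) and than in basal libraries (log2 1.7 ± 0.12, adjusted p = 1.86e-09), with 32.5% of its span shared; Bcl3, an atypical IkB protein with 30.3% shared, was not called.

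Other pattern receptors sense nucleic acids, sugars and flagellin. Of 19 listed, 16 were tested: HSL against AP gave 2 higher and 1 lower (all genes: 39.9% called), HSL against basal 3 and 2 (58.4%), and AP against basal 2 and 3 (44.7%). The cytosolic RNA sensors, like Tlr3, were higher in both luminal populations than in basal cells. Ifih1 (MDA5) averaged 33.3 ± 3.83 CPM in HSL, 56 ± 11 in AP and 16 ± 3.26 in basal libraries, and was higher in HSL (log2 1.06 ± 0.16, adjusted p = 1.25e-05) and in AP (log2 1.81 ± 0.16, adjusted p = 3.77e-08) than in basal libraries. Ddx58 (RIG-I) was higher in HSL (log2 0.8 ± 0.12, adjusted p = 1.29e-05) and in AP (log2 0.93 ± 0.12, adjusted p = 4.21e-06) as well. Tmem173 (STING), an adaptor of cytosolic DNA sensing, was higher in HSL than in AP (log2 0.68 ± 0.23, adjusted p = 0.025) and lower in AP than in basal cells (log2 -0.78 ± 0.23, adjusted p = 0.0105). Naip5, a sensor of bacterial flagellin inside the cell, was higher in HSL than in AP (log2 2.22 ± 0.64, adjusted p = 0.0098) and than in basal libraries (log2 3.3 ± 0.67, adjusted p = 3.84e-04), at 4.03 ± 2.4, 0.861 ± 0.722 and 0.412 ± 0.267 CPM in HSL, AP and basal libraries.

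Cytokine receptors and inducers of the acute phase were called in both directions. Of 24 listed, 23 were tested: HSL against AP gave 7 higher and 9 lower (all genes: 19.8% and 20.1%). HSL against basal gave 9 and 10 (all genes: 27.8% and 30.6%). AP against basal gave 5 and 7, or 21.7% and 30.4%, near the share of all genes (21.5% and 23.1%). Cebpb, a C/EBP factor that drives acute phase genes in the liver, averaged 217 ± 78.8 CPM in HSL, 2037 ± 459 in AP and 2612 ± 565 in basal libraries. Cebpb was lower in HSL than in AP (log2 -3.23 ± 0.24, adjusted p = 8.32e-08) and than in basal libraries (log2 -3.59 ± 0.24, adjusted p = 8.91e-10), with 60.4% of its span shared with another gene. Socs3, a feedback inhibitor of cytokine signalling through STAT3, was higher in HSL than in AP (log2 1.05 ± 0.24, adjusted p = 0.00212) and lower in AP than in basal cells (log2 -3.39 ± 0.26, adjusted p = 8.45e-09). Stat3 was lower in HSL than in AP (log2 -0.66 ± 0.2, adjusted p = 0.0119). Il17re, the receptor subunit for interleukin 17C, was lower in HSL than in AP (log2 -0.88 ± 0.13, adjusted p = 3.22e-05) and higher in AP than in basal libraries (log2 1.8 ± 0.13, adjusted p = 3.85e-09).

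Further complement genes and regulators (26 listed, 21 tested) were higher in 2 and lower in 8 for HSL against AP, higher in 3 and lower in 12 for HSL against basal, and higher in 5 and lower in 9 for AP against basal libraries. All genes gave 19.8% higher and 20.1% lower, 27.8% and 30.6%, and 21.5% and 23.1% in that order. Clu, clusterin, which blocks assembly of the membrane attack complex, averaged 879.9 ± 202 CPM in HSL, 3138 ± 999 in AP and 141 ± 33.5 in basal libraries. Every HSL library was below every AP library (log2 -1.83 ± 0.22, adjusted p = 3.95e-06) and above every basal library (log2 2.64 ± 0.22, adjusted p = 1.52e-08). The decay-accelerating factor Cd55 was higher in AP than in basal libraries (log2 3.43 ± 0.29, adjusted p = 2.89e-08), and Serping1, the C1 inhibitor, was lower in HSL than in AP (log2 -3.14 ± 0.36, adjusted p = 3.11e-06) and than in basal libraries (log2 -4.77 ± 0.39, adjusted p = 9.81e-09). Cr1l, a mouse membrane regulator also known as Crry, was lower in HSL than in AP (log2 -0.64 ± 0.11, adjusted p = 1.99e-04).

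Other antimicrobial, acute phase and mucosal genes (32 listed, 16 tested) were higher in 2 and lower in 8 for HSL against AP, 6 and 6 for HSL against basal, and 8 and 5 for AP against basal libraries. All genes gave 19.8% higher and 20.1% lower, 27.8% and 30.6%, and 21.5% and 23.1% in that order. The membrane mucin Muc1 averaged 29.97 ± 9.19 CPM in HSL, 331 ± 138 in AP and 8.57 ± 3.13 in basal libraries (log2 -3.46 ± 0.35, adjusted p = 7.73e-07 for HSL against AP; log2 5.27 ± 0.38, adjusted p = 3.31e-09 for AP against basal). Muc20, another membrane mucin with 24.8% of its span shared, was lower in HSL than in AP (log2 -3.57 ± 0.5, adjusted p = 2.25e-05). Cp, ceruloplasmin, a copper-carrying acute phase protein with 25.3% shared, was lower in HSL than in AP (log2 -4.4 ± 0.43, adjusted p = 5.59e-07) and than in basal libraries (log2 -2.92 ± 0.4, adjusted p = 5.45e-06). Rnase4, a secreted ribonuclease with 72.0% shared, was lower in HSL (log2 -6.29 ± 0.34, adjusted p = 6.39e-11) and in AP (log2 -4.52 ± 0.31, adjusted p = 1.59e-09) than in basal libraries.

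Among other chemokines and their receptors (17 listed, 9 tested) HSL against AP gave 1 higher and 5 lower (all genes: 19.8% and 20.1%). HSL against basal gave 1 and 5 (all genes: 27.8% and 30.6%), and AP against basal 1 and 3 (all genes: 21.5% and 23.1%). The gene that was higher each time was Cxcl15, a chemokine known in the mouse as lungkine. It averaged 756 ± 291 CPM in HSL, 148 ± 86.4 in AP and 23.5 ± 12.2 in basal libraries (log2 2.35 ± 0.5, adjusted p = 0.00113 for HSL against AP; log2 5.01 ± 0.57, adjusted p = 5.58e-07 for HSL against basal). Cx3cl1, the membrane-bound chemokine fractalkine, was lower in HSL than in AP (log2 -1.54 ± 0.14, adjusted p = 2.5e-07) and than in basal libraries (log2 -1.82 ± 0.14, adjusted p = 3.2e-09). Csf1, a growth factor of macrophages, was lower in HSL (log2 -2.55 ± 0.24, adjusted p = 5.35e-08) and in AP (log2 -1.29 ± 0.23, adjusted p = 1.49e-04) than in basal libraries, as was Ccl7, a monocyte chemokine (log2 -4.9 ± 0.51, adjusted p = 2.12e-07 and log2 -3.76 ± 0.48, adjusted p = 4.23e-06).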

How the data were processed

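RNA of 6 HSL, 6 AP and 6 basal populations was amplified with Smart-Seq V4 and Nextera XT kits, which do not mark strand, per the labels' protocols. Each deposited file holds read counts and RPKM per gene, per the file headers. Reads were placed on GRCm38, per the submitters' processing notes; which aligner and counter were run is not given in the sources used here. The authors' RPKM values were not used, because the length in the deposited files is the genomic span for 85.6% of identifiers. Where other genes cover all of a gene, its count is mostly 0, and 147 identifiers (0.00303 to 0.00677% of counts) matched no GENCODE M21 gene name.

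Counts as deposited were fitted over all 18 libraries with edgeR 4.0.16 in R 4.3.3 (TMM factors, filterByExpr with a minimum count of 10, robust quasi-likelihood test, Benjamini-Hochberg adjustment), which was tested on simulated data. DESeq2 1.42.0, other scalings, no filter, the sample number as a block, each sample number left out, and samples 1 to 3 or 4 to 6 alone were the alternatives. Same-numbered libraries deviated together (r of 0.127 to 0.63 across genes for all 18 pairs, above 0.1). For sample 6 a library of another number correlated better in 3 of 3 comparisons. The main fit held no block, so its p-values ignore this pairing, and the block was an alternative only. With the block all genes called for HSL against AP were 8374, against 6571 in the main fit. The pairing comes from the data, as the series' design gives 6 animals and does not say what a number marks. Where numbers do not mark animals, p-values measure only the spread between these libraries. Values by library are given for genes with a mean of at least 20 CPM in a population and a call of at least 2-fold. Other genes of each list were named by level and by adjusted p, up to 3 of each. The members and lists were chosen with earlier results of these data known. The listed names Mb21d1 and C5 did not match and were not analysed here. Counting error is small at these depths except for the genes under 1 CPM.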

Additional observations from a re-analysis of the deposited data

Results flagged for a closer look

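In each population, the lowest and the highest of 6 libraries were compared with their nearest neighbour on a log2(CPM + 0.5) scale by Dixon's ratio, at its usual critical value for 6 values. The 75 groups of libraries examined gave 7 values past it, where chance at 5% gives about 3.8, and all 7 were in sample 1. The 75 groups come from the same 18 libraries and are not independent, so 3.8 is a rough guide only.

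Among AP libraries sample 1 was far below the others for 4 genes. Nod1 was at 25.8 CPM there, against 56.8 to 70.6 in the other 5 AP libraries. Ltf was at 142 CPM, against 1920 to 3934. Chil1 was at 65.2 CPM, against 227 to 448, and Pigr at 2.42 CPM, against 16.7 to 29.96. Il1rn was far above them, at 15.7 CPM against 3.43 to 5.49.

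Ltf was also low in the basal library of sample 1, at 13.2 CPM against 78.3 to 157 in the other 5. Wfdc2 was low in the HSL library of sample 1, at 821 CPM against 2169 to 2953 in the other 5.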

How the results depend on the processing

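Of the values recomputed for single genes, 1058 kept direction and call, 64 lost a call, 21 gained one and 24 changed sign; the cause was not tested. The members called in every setting were 8 of 22 for HSL against AP, 16 of 22 for HSL against basal and 14 of 20 for AP against basal libraries. That count was not made over all genes. Leaving out 1 sample number gave 3 to 4 genes higher and 17 to 20 lower in HSL than in AP, 8 to 10 and 10 to 15 in HSL against basal, and 12 to 14 and 4 to 6 in AP against basal libraries; all genes called ranged over 5207 to 7898, 8546 to 10651 and 6205 to 8352. In samples 1 to 3 alone, which have fewer libraries, all genes called were 1491, 5674 and 3718 in the same order, and members gave 0 higher and 8 lower for HSL against AP by edgeR. Calls lost there for HSL against AP were those of Tlr4, Nod1, Ltf, Slpi, Wfdc2, Defb1, Hp, C3, C1s1, Pigr, Fcgbp, Cxcl1, Cxcl2 and Il1rn. For HSL against basal they were those of Tlr4, Tlr6, Ltf, Cfb and Cxcl1. For AP against basal libraries they were those of Tlr6, Nod1, Defb1, Cxcl2 and Cxcl5.

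The sign changes were all of differences not called in the fit of all libraries. For HSL against AP, Tlr3 was -0.10 with total counts, -0.15 in samples 1 to 3 and -0.007148 to 0.12 with a sample left out. Lyz2 was -0.048 with total counts, -0.17 with the block, -0.73 in samples 4 to 6 and -0.059 to 0.11 with a sample left out. Nod2 was -0.052 in samples 1 to 3 and -0.28 to 0.42 with a sample left out, Nos2 0.26 in samples 1 to 3 and Il1b -0.44 in samples 4 to 6. For HSL against basal libraries Nod2 was -0.35 in samples 1 to 3 and -0.11 to 1.65 with a sample left out, and Pigr -0.42 in samples 4 to 6. For AP against basal libraries Nod2 was -0.30 in samples 1 to 3 and -0.12 to 1.93 with a sample left out, Nos2 -0.59 and -0.37 to 0.76, and Tlr2 0.37 in samples 4 to 6. With no filter, 42.8% of all calls were higher in HSL than in AP, against 49.6% with it.

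The replicate block changed the calls of Il1b (AP and HSL against basal), Il1rn (HSL against basal) and Cxcl5 (HSL against AP), given above, and no other call of these genes. The block also gave calls to leukocyte markers, as stated above. Low counts limit what can be said of Tlr6, Cfb and the genes not tested, other than Myd88, whose span is shared.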

Other observations

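Interferon response genes (8 listed, 7 tested) were lower in HSL for 3 genes against AP (all genes: 20.1%) and for 4 against basal libraries (all genes: 30.6%). They were higher in AP than in basal libraries for 1 (all genes: 21.5%). They summed to 32.9 to 48.0 CPM in HSL, 38.3 to 142 in AP and 48.1 to 108 in basal libraries, and sample 6 held the highest AP and basal values. Endothelial markers (6 tested) summed to 13.1 to 33.7 CPM in HSL, 19.9 to 66.2 in AP and 51.9 to 182 in basal libraries. All 6 were lower in HSL (all genes: 30.6%) and in AP (all genes: 23.1%) than in basal libraries. For HSL against AP 1 was lower (all genes: 20.1%). Adipocyte markers (5 listed, 2 tested) summed to 10.5 to 57.0, 25.4 to 119 and 93.4 to 300.0 CPM in HSL, AP and basal libraries. Of these 1 was lower in HSL (all genes: 30.6%) and in AP (all genes: 23.1%) than in basal libraries.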
